A study of Mus musculus with 6 samples.

Results

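The RAB GTPases described here are the 59 genes, of 55331 in the deposited gene table, whose symbol is Rab followed by a number and at most 1 letter and 1 further digit. RAB-like genes and named pseudogene copies of RABs fall outside that rule. The study measured polyA RNA of whole testis at 35 days of age in 2 groups of 3 libraries each, in mice of a strain given as mixed. All 6 libraries carry the floxed Ptbp1 alleles: the control genotype is Ptbp1fl/fl, and the other, written here as Ptbp1_cKO, is Ptbp1fl/fl; Amh-Cre+/-. Amh-Cre is driven by the promoter of the anti-Müllerian hormone gene, which acts in Sertoli cells, the somatic cells that hold and feed the germ cells. The product of Ptbp1 binds RNA and controls splicing, and the series asks what it does in Sertoli cells. No group carried Amh-Cre without the floxed alleles, so effects of the transgene and of the deletion cannot be told apart. The labels do not say whether the libraries of a group came from separate animals, so p-values may measure only a technical spread.

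RAB proteins are small GTPases that mark the membranes of the cell and steer vesicles from one compartment to another. They switch between a GTP-bound form, made by exchange factors and able to recruit effectors such as tethers and motors, and a GDP-bound form, made by GTPase-activating proteins and carried through the cytosol by chaperones. Lipid groups attached to cysteines at the end of the protein hold most RABs in the membrane. In the testis, such traffic builds the acrosome of the spermatid, and it moves junction proteins in and out of the Sertoli cell surface.

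The deposited table holds 1 FPKM per gene and group (a fragment count scaled to transcript length and sequencing depth), with the log2 fold change, p-value and q-value of the authors' Cuffdiff test, and no value per library. Every FPKM below is therefore the authors' group value of 3 libraries and has no error of its own. The steps between low FPKM values of single-exon genes gave an estimate of 66400000 to 86900000 fragments per library in the control and 65200000 to 72100000 in Ptbp1_cKO, on Cuffdiff's own scale and taking each FPKM as a mean of 3 libraries. At that depth 1 FPKM of a transcript of 1 kb stood for about 226 fragments over the 3 control libraries and 204 over the 3 Ptbp1_cKO libraries. Ptbp1 itself was at 46.7 FPKM in Ptbp1_cKO, with a log2 fold change of -0.10 and a Cuffdiff q of 0.999 in the authors' deposited table. In whole testis, where other cells keep the gene, this level does not check the labels. The tissue's germ cell markers were abundant: those of elongating spermatids summed to 53816 FPKM in the control and 57052 FPKM in Ptbp1_cKO, although Prm2, a protamine gene of that list, was listed at 0 in both.

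The coding ends of the RAB genes are shown first, because the cysteine codons there are a feature that the members share beyond their names and that divides them into classes. All 59 members have cysteine codons (TGC or TGT) within the last 5 codons of a GENCODE M21 coding sequence (build GRCm38), in 6 arrangements. The lines below give the last 9 codons and the stop codon of 10 members, from the most abundant ones and from each arrangement, 5′ to 3′, with the cysteine codons in capitals.
Rab8a: accagcttcttccggTGCagtctcctgtga
Rab28: cctcggagctccatgTGTgcagtgcagtga
Rab2a: ggacagcaggcagggggaggcTGCTGTtga
Rab12: cctcccagaccacacgtccgaTGCTGTtga
Rab7: aaggcctccgcagaaagcTGCagtTGTtga
Rab39b: atcaaatcagagaggagaTGTttgTGCtag
Rab11a: ccaaaggtgcagTGCTGTcagaacatctaa
Rab11b: aacaagctgcagTGCTGCcagagcctgtga
Rab5c: gccagccggagccagTGCTGCagcaactga
Rab34: agcaagaaaaaggccacaTGTTGTccctga

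Rab8a and Rab28 belong to the 9 members with a single cysteine codon, the fourth from last, and these 9 genes held the largest share of RAB transcripts, 32.1% of the summed FPKM in the control and 31.1% in Ptbp1_cKO. The 15 members that end in 2 cysteine codons, as Rab2a and Rab12 do, held 25.3% and 26.0%. The arrangement of Rab7 and Rab39b, cysteine codons in the last and the third from last places, was the most common by genes, with 20 members, but held 18.3% and 19.4%. The pair of cysteine codons in the fifth and the fourth places from the end, as in Rab11a and Rab11b, occurs in 6 members with 15.2% and 14.3% of the FPKM. Rab11a alone had 118 of their 144 FPKM in the control. Another 6 members, Rab5c among them, have the pair in the fourth and the third places and held 8.36% and 8.46%. Only 3 members, Rab20, Rab34 and Rab44, have it in the third and the second places, and they held 0.679% and 0.783%. The shares of the arrangements thus lay within about 1 percentage point of each other in the 2 groups. They carry no error here and were not tested.

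**Figure D1:**
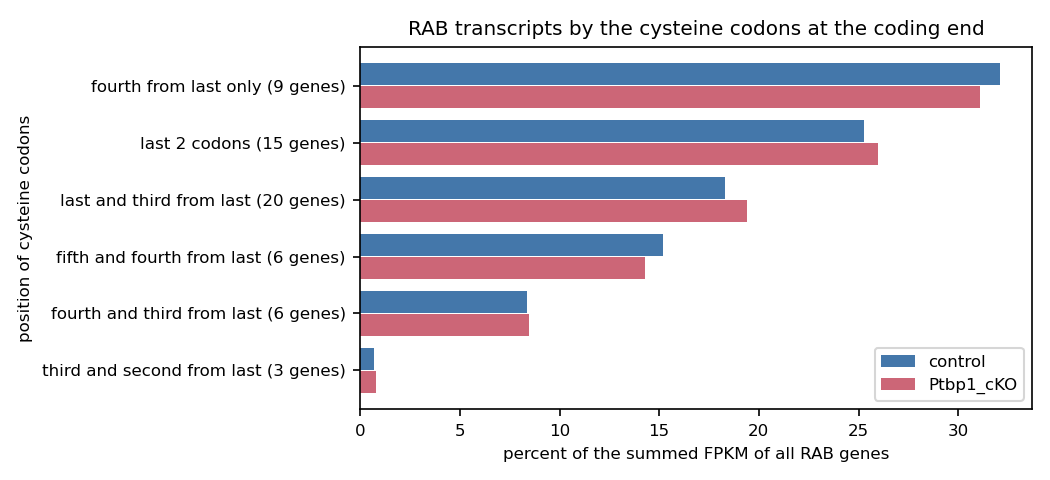
Percent of the summed FPKM of all 59 RAB genes (x axis) held by genes of each arrangement of cysteine codons at the coding end (y axis), in the control and in Ptbp1_cKO. Each bar is computed from the authors' group values and carries no error; the order of the 6 arrangements is the same in both groups, from 32.1% to 0.679% in the control.

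No RAB gene changed between the groups at q under 0.05. Of the 59 members, 51 were tested by Cuffdiff, and 0 of these 51 passed, where 256 of 22048 tested genes did (1.16%). At an unadjusted p under 0.05 stood 3 members, or 5.88% of 51, against 1979 tested genes (8.98%), so the members' share was not above that of all genes. All 3 were higher in Ptbp1_cKO, and 4.38% of all tested genes were called in that direction at that p. A 2-sided normal p computed from the deposited statistic called 0 members and 19 genes in all. Of the tested members 29 had the higher FPKM in Ptbp1_cKO and 22 the lower, 56.9% higher against 50.9% of all tested genes. Over the 52 members with at least 0.1 FPKM in a group, the median difference in log2(FPKM + 1) was 0.0111, beside 0.0045 over all 23462 such genes. In whole tissue, fewer cells of a type and less RNA per cell cannot be told apart, and this holds for every level below.

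The summed FPKM of the family was 947 in the control and 928 in Ptbp1_cKO, a ratio of 0.980, where the sum over all genes had a ratio of 0.970. Among the 41 members with at least 1 FPKM in a group, the deposited log2 fold changes ran from -0.42 to 0.33. Of these 41, 36 (87.8%) lay within 0.25 of 0 on the log2 scale and 0 lay beyond 0.5, whereas 78.4% of 15793 tested genes at that level lay within 0.25 and 836 (5.29%) beyond 0.5. The median size of the log2 fold change, sign aside, was 0.083 for the members and 0.127 for all genes at that level.

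How small a change Cuffdiff called in these libraries depended on the level. Among 5485 tested genes with a mean of 1 to 5 FPKM, the smallest called change was 0.46 on the log2 scale, and the largest among the 11 members at that level was 0.42. From 5 to 20 FPKM the smallest called change was 0.40, and the largest of 18 members was 0.33. From 20 to 200 FPKM the smallest called change was 0.37, and the largest of 12 members was 0.28. In each of the 3 ranges every member therefore lay below the smallest change that was called for any gene. Whether smaller true changes could have been called was not tested.

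**Figure D2:**
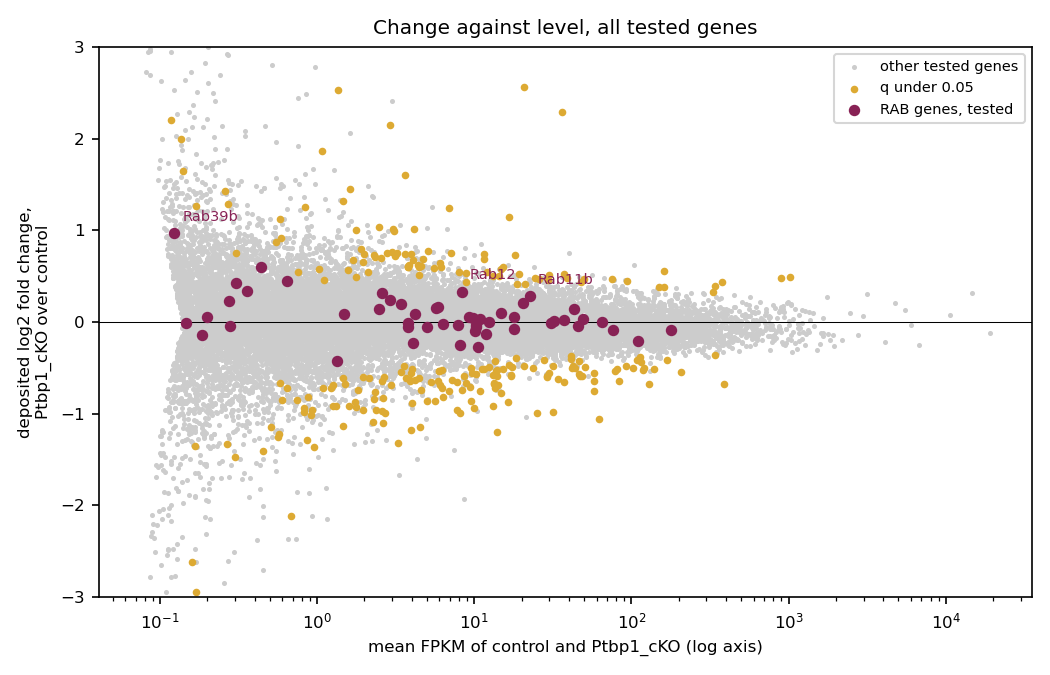
Deposited log2 fold change, Ptbp1_cKO over control (y axis), against the mean FPKM of both groups (x axis, log scale) for tested genes, with genes at q under 0.05 in yellow and the 51 tested RAB genes in purple. The 3 labelled RAB genes had unadjusted p under 0.05, and no RAB gene is yellow. Not drawn are 34 genes outside ±3 and 28 tested genes with no finite statistic, some of which had q under 0.05.

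Levels spanned a wide range. The 12 most abundant members held 76.1% of the family's FPKM in the control and 75.6% in Ptbp1_cKO, and 41 of 59 members reached 1 FPKM in a group. No member was listed at 0. These 12 genes ran from Rab8a at 184 FPKM in the control to Rab4b at 18.9 FPKM, and they come from every role group described next but the ubiquitin ligase adaptors.

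**Figure D3:**
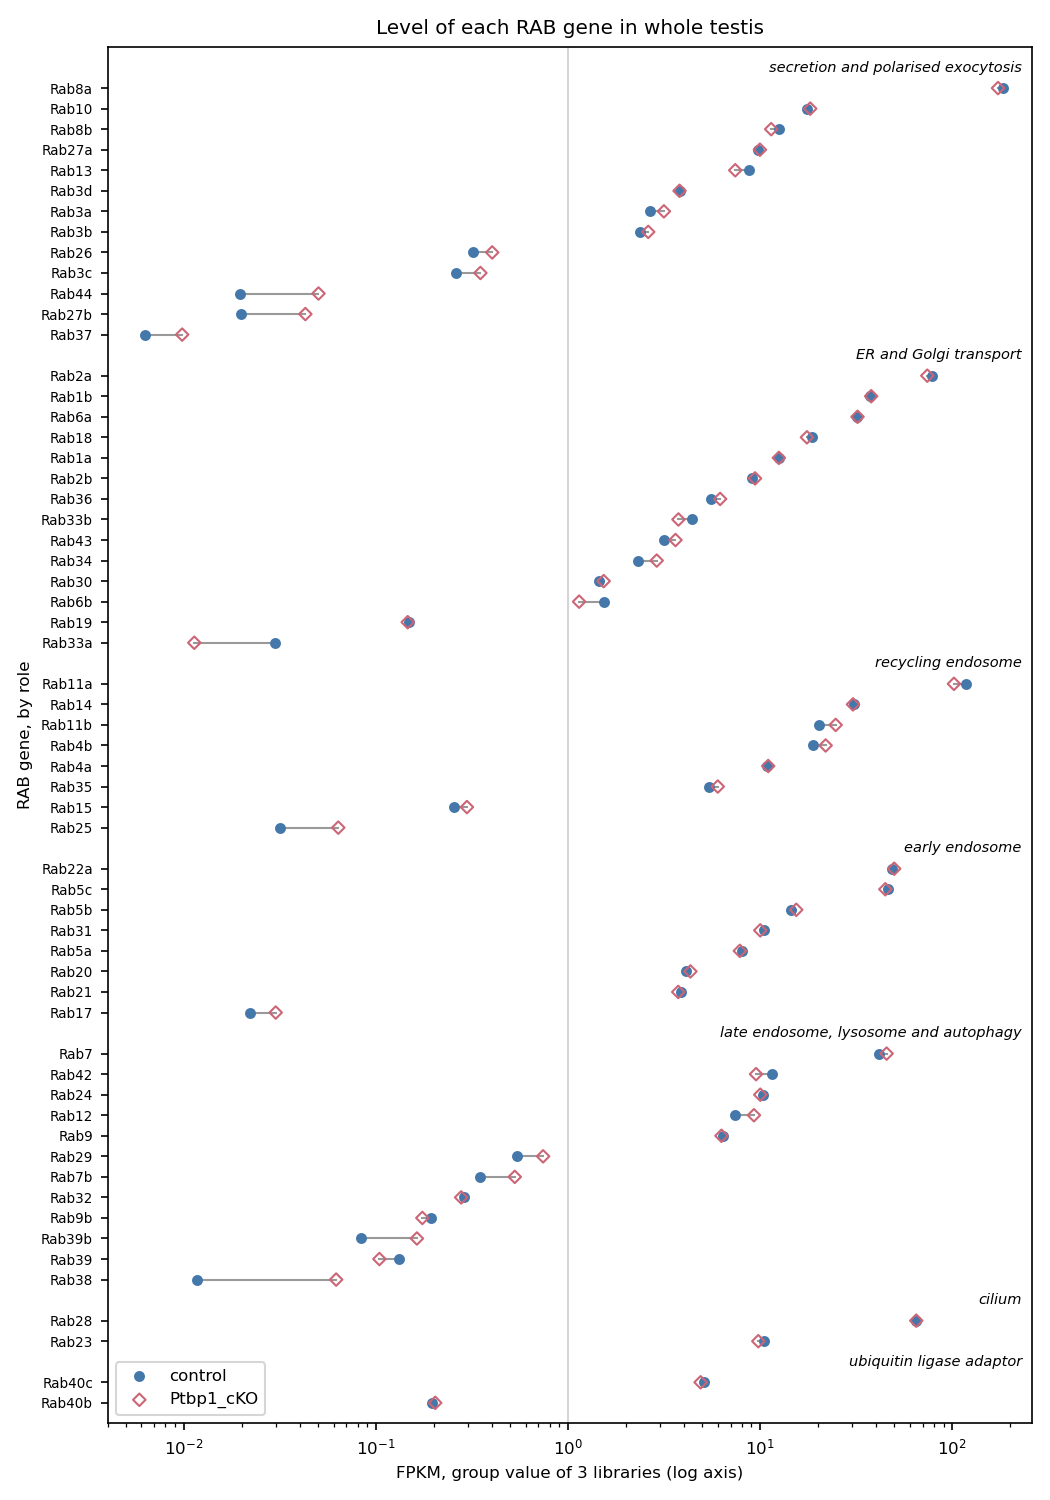
FPKM of each of the 59 RAB genes (x axis, log scale) in the control (filled circles) and Ptbp1_cKO (open diamonds), grouped by role and ordered by mean level (y axis). Each symbol is the authors' value for a group of 3 libraries, without error; the vertical line marks 1 FPKM, and the widest gaps lie among genes below it.

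Among the 13 RABs of secretion and polarised exocytosis, which bring vesicles to the plasma membrane, 10 were tested, with 6 higher and 4 lower in FPKM, and none passed the test. Their summed FPKM was 242 in the control and 230 in Ptbp1_cKO, 25.5% and 24.8% of the family. Rab8a (chromosome 8, 72161200 to 72183904), which carries vesicles from the trans-Golgi to the cell surface and to cilia, was the most abundant RAB gene, with 184 FPKM in the control and 173 FPKM in Ptbp1_cKO. Its log2 fold change was -0.09 (Cuffdiff q = 0.999, the authors' deposited table). The rest of the group lay far below it. Rab10, which delivers glucose transporters and other cargo to the surface, had 17.5 and 18.2 FPKM, and Rab27a, known for melanosomes and lytic granules, 9.68 and 9.96 FPKM. Rab13, a RAB of tight junctions and epithelial surfaces, was lower in FPKM, 8.79 in the control and 7.41 in Ptbp1_cKO. This difference, -0.25 on the log2 scale, did not pass (p = 0.117, Cuffdiff q = 0.741, the authors' deposited table). Rab3a, which acts in regulated exocytosis at synapses and in the acrosome reaction, was higher in FPKM, 2.67 and 3.15, and did not pass either (log2 fold change 0.24, Cuffdiff q = 0.954, the authors' deposited table). Mpv17l2 lies opposite 1.30% of its exonic length, so a small part of its fragments could belong to either gene.

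The 14 RABs of the endoplasmic reticulum and Golgi had a summed FPKM of 206 in the control and 203 in Ptbp1_cKO and 21.8% of the family in both. Of 13 tested, 8 were higher and 5 lower in FPKM, and none passed. Rab2a, needed for traffic between the endoplasmic reticulum and the Golgi, led with 78.4 and 74.1 FPKM (log2 fold change -0.08, Cuffdiff q = 0.999, the authors' deposited table). Rab1b, which starts the transport from the endoplasmic reticulum to the Golgi, stood at 37.2 and 37.8 FPKM. Rab6a, a RAB of retrograde Golgi traffic, was at 31.8 and 32.1 FPKM, and 19.0% of its exonic length lies opposite Mrpl48. The larger differences in this group were in genes of low level. Rab34 (chromosome 11, 78188430 to 78192193), a Golgi RAB that also takes part in forming cilia, had 2.32 FPKM in the control and 2.89 FPKM in Ptbp1_cKO. That is a log2 fold change of 0.32 with p = 0.149 and a Cuffdiff q of 0.799 in the authors' deposited table. Rab33b, which acts in the Golgi and in autophagy, went the other way, from 4.41 to 3.75 FPKM (log2 fold change -0.23, Cuffdiff q = 0.923, the authors' deposited table). Rab6b (chromosome 9, 103111787 to 103185276), the paralogue of Rab6a best known from neurons, had the lowest fold change among members of at least 1 FPKM, with 1.53 FPKM in the control and 1.14 FPKM in Ptbp1_cKO. The authors' deposited table gives it -0.42 on the log2 scale, p = 0.225 and a Cuffdiff q of 0.898, so the difference did not pass.

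The 8 early endosome RABs had a summed FPKM of 136 in both groups. Rab22a, which controls sorting and recycling from early endosomes, was the most abundant of them with 48.7 and 49.8 FPKM (log2 fold change 0.03, Cuffdiff q = 0.999, the authors' deposited table). Rab5c, one of the RAB5 proteins that drive fusion of early endosomes, followed with 46.1 and 44.8 FPKM (-0.04 on the log2 scale, Cuffdiff q = 0.999, the authors' deposited table). Of 7 tested members 3 were higher and 4 lower in FPKM, and the differences in log2(FPKM + 1) of the measured ones ran from -0.0527 to 0.0946. No other role group of more than 2 members had so narrow a range.

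The 8 recycling endosome RABs, which return receptors and junction proteins to the surface, held 205 FPKM in the control and 197 FPKM in Ptbp1_cKO, with 5 of 7 tested members higher in FPKM and none past the q threshold. Rab11a (chromosome 9, 64715299 to 64737758), the main RAB of the recycling endosome, was at 118 FPKM in the control and 102 FPKM in Ptbp1_cKO. The difference of -0.21 on the log2 scale had p = 0.193 and a Cuffdiff q of 0.859 in the authors' deposited table. Rab11b (chromosome 17, 33742484 to 33760530), its close paralogue, was at 20.3 and 24.7 FPKM, 1.22-fold in the other direction. Its log2 fold change of 0.28 had p = 0.0373 and a Cuffdiff q of 0.485 in the authors' deposited table, so it did not pass once all tested genes were taken into account. Gm17251, at 3.77 and 4.19 FPKM, lies opposite 5.37% of the exonic length of Rab11b. Rab4b, which serves the fast return of receptors, had 18.9 and 21.9 FPKM (log2 fold change 0.21, p = 0.103, Cuffdiff q = 0.711, the authors' deposited table). In the annotation 65.0% of its exonic length is shared with Gm21983 on the same strand, a gene listed at 0, so its level is uncertain. Rab14, which links Golgi and endosomes, stood at 30.7 and 30.4 FPKM.

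The 12 RABs of late endosomes, lysosomes and autophagy had a summed FPKM of 78.4 in the control and 82.7 in Ptbp1_cKO, with 5 tested members higher and 5 lower. Rab7, which drives fusion of late endosomes with lysosomes, made up most of it with 41.3 and 45.5 FPKM (log2 fold change 0.14, p = 0.409, Cuffdiff q = 0.999, the authors' deposited table). Rab12 (chromosome 17, 66494512 to 66519729), which sends transferrin receptors from recycling endosomes to lysosomes, had 7.38 FPKM in the control and 9.27 FPKM in Ptbp1_cKO, a 1.26-fold difference. Its log2 fold change of 0.33 was the highest among members of at least 1 FPKM, with p = 0.0265 and a Cuffdiff q of 0.427 in the authors' deposited table. Rab42 had a difference of like size in the other direction, 11.5 and 9.51 FPKM (log2 fold change -0.28, p = 0.0853, Cuffdiff q = 0.674, the authors' deposited table). Rab24, tied to autophagy, was at 10.3 FPKM in the control with a log2 fold change of -0.03 (Cuffdiff q = 0.999, the authors' deposited table). Of its exonic length 62.4% lies opposite Prelid1, and the sources used here do not say whether strand was used in counting.

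The cilium RABs Rab28 and Rab23 together held 75.3 and 74.6 FPKM. Rab28, which is found at cilia and in photoreceptors, was the fourth RAB gene by level, with 64.8 and 64.9 FPKM and a log2 fold change of 0.0017 (Cuffdiff q = 0.999, the authors' deposited table). Rab23, an inhibitor of Hedgehog signalling, had 10.5 and 9.77 FPKM. The pair with a ubiquitin ligase adaptor domain, Rab40c and Rab40b, summed to 5.27 and 5.09 FPKM.

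Paralogues of a RAB type are related in sequence and can overlap in their work. Within the groups, pairs shared from 60.4% (Rab7 and Rab7b) to 78.5% (Rab6a and Rab6b) of the bases of the longer coding sequence. The shares of FPKM show which gene supplies most of a group's transcripts. The 36 members with a named paralogue fall into 16 groups, of which 14 reached a summed level of 1 FPKM. In 10 of these 14 groups 1 gene held at least 80% of the control FPKM. Rab8a held 93.6% of the Rab8 group over Rab8b in the control and 93.8% in Ptbp1_cKO. Rab6a held 95.4% and 96.6% over Rab6b, and Rab2a 89.6% and 88.7% over Rab2b. In Rab2b 59.3% of the exonic length lies opposite Gm43766, listed at 0.0219 and 0.0357 FPKM. Tox4, at 27.7 and 28.2 FPKM, lies opposite 4.68%. These overlaps add uncertainty to the share of Rab2b. Such groups were supplied mostly by 1 gene in both genotypes. The same held for Rab7 over Rab7b (99.2% and 98.9%), Rab27a over Rab27b (99.8% and 99.6%) and Rab9 over Rab9b (97.1% and 97.3%). Rab33b over Rab33a (99.3% and 99.7%), Rab40c over Rab40b (96.3% and 96.0%) and Rab22a over Rab31 (82.4% and 83.3%) complete them, together with Rab11a.

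The mixed groups were Rab1, Rab3, Rab4 and Rab5. Rab1b held 74.9% and 75.1% of its pair with Rab1a. Rab4b held 63.6% in the control and 66.5% in Ptbp1_cKO beside Rab4a. In the Rab5 group the order was Rab5c with 67.3% and 65.8%, Rab5b with 21% and 22.7%, and Rab5a with 11.7% and 11.5%. The Rab3 group was the most divided, with Rab3d at 41.9% and 38.4%, Rab3a at 29.3% and 31.8%, Rab3b at 25.9% and 26.3%, and Rab3c at 2.84% and 3.52%. No group of at least 1 FPKM changed its leading gene between the genotypes.

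The largest shift of a leading gene among those 14 groups was in Rab11. Rab11a held 85.3% of the group in the control and 80.5% in Ptbp1_cKO, a shift of -4.82 percentage points, and Rab11b held 14.7% and 19.4%. The coding sequences of Rab11a and Rab11b, of which the ends are printed above, are 75.0% identical. Rab11b has a copy, Rab11b-ps2, that matches its coding sequence at 99.8%, and this copy was at 0.119 and 0.0636 FPKM. The shift in shares has no error and was not tested, and neither gene passed the q threshold by itself. Coding copies of at least 95% identity also exist for Rab2a, Rab5b, Rab6a, Rab7 and Rab9, which adds some uncertainty to the levels of these genes. Identity ran from 95.3% for the copy of Rab6a to 99.4% for that of Rab5b. The highest listed level of these copies was 0.148 FPKM, for that of Rab2a in Ptbp1_cKO.

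**Figure D4:**
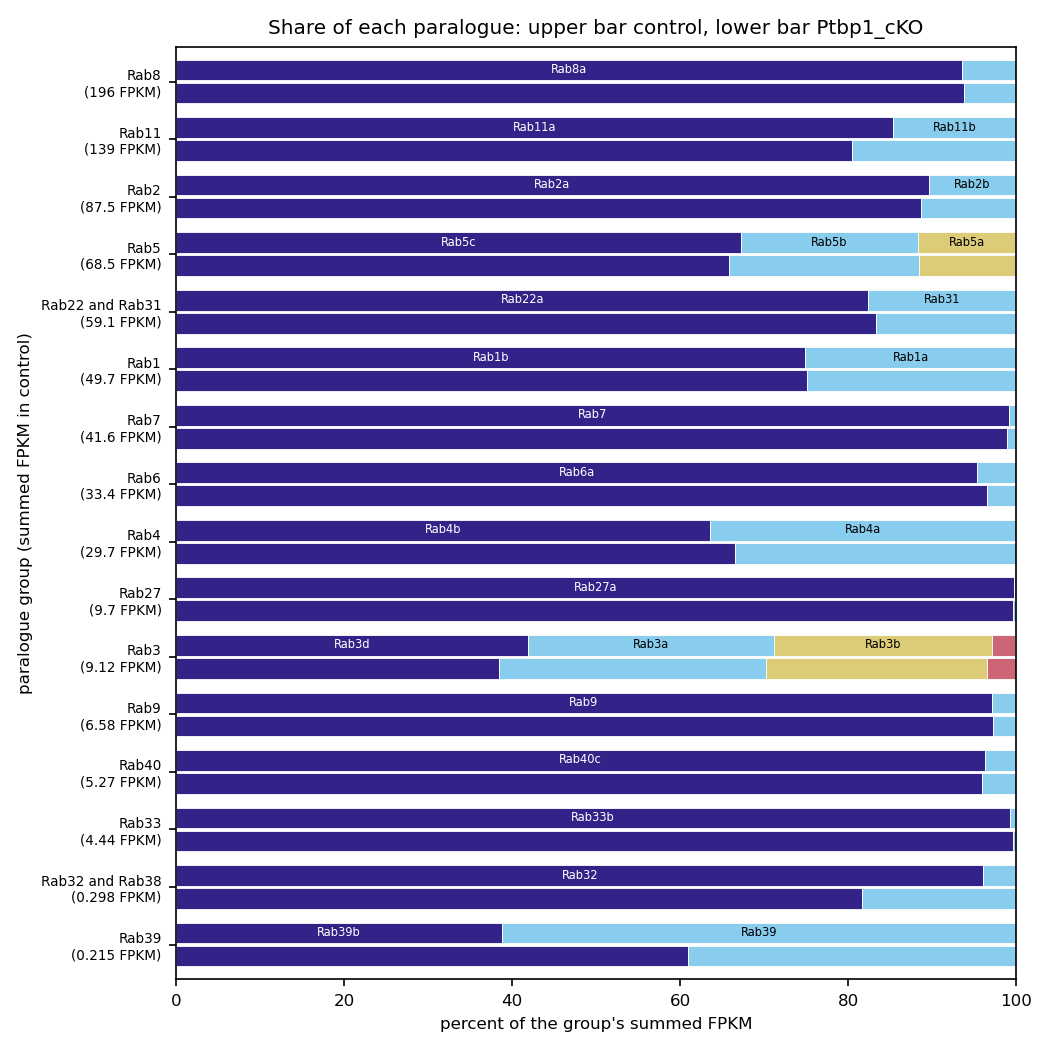
Percent of the summed FPKM of each paralogue group (x axis) held by each member, with the control above and Ptbp1_cKO below in each pair of bars; groups are ordered by control level (y axis). Bars carry no error; 1 gene fills at least 80% of most groups, and among groups of at least 1 FPKM the widest shift of a leading gene is Rab11a, from 85.3% to 80.5%.

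Members on chromosome X were few and low. The 4 of them, Rab9, Rab9b, Rab39b and Rab33a, summed to 6.69 FPKM in the control and 6.63 FPKM in Ptbp1_cKO, nearly all of it Rab9, which returns mannose 6-phosphate receptors from late endosomes to the Golgi, with 6.39 and 6.28 FPKM. Its paralogue Rab9b was at 0.193 and 0.174 FPKM. Rab39b (chromosome X, 75572046 to 75578231), a RAB known from neurons and autophagy, had the smallest p of the family. It was listed at 0.0833 FPKM in the control and 0.163 FPKM in Ptbp1_cKO, which for its longest transcript amounts to about 59 and 104 fragments over 3 libraries each. The authors' deposited table gives a log2 fold change of 0.97, p = 0.00455 and a Cuffdiff q of 0.167, so Rab39b did not pass. Gm15063 lies opposite 18.6% of its exonic length. With Rab39 going from 0.132 to 0.104 FPKM, Rab39b held 38.8% of its pair in the control and 61.0% in Ptbp1_cKO, at levels too low for a statement on the pair.

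The 8 members that Cuffdiff left untested were Rab39, Rab25, Rab38, Rab44, Rab27b, Rab17, Rab33a and Rab37, and the highest of their values was 0.132 FPKM, for Rab39. Rab38, a RAB of melanosomes, was at 0.0117 FPKM in the control and 0.0619 FPKM in Ptbp1_cKO, about 3 and 17 fragments. Rab25, an epithelial relative of Rab11a, was at 0.0316 and 0.0635 FPKM, about 6 and 11 fragments. Rab44, a long RAB of immune cells, had 0.0196 and 0.0501 FPKM, about 17 and 39 fragments. These gaps rest on few fragments and no test. Rab27b, which acts in secretory granules, had 0.0197 and 0.0428 FPKM. In Rab33a the lower value was that of Ptbp1_cKO, 0.0299 against 0.0113 FPKM or about 6 and 2 fragments. Of the 8 untested members 6 had the higher value in Ptbp1_cKO.

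Several cell type marker lists stood at different levels in the 2 groups, and their part in the RAB values was not tested. Genes said to pass here did so at the deposited q. With the normal p, 0 genes passed in each list except that of epididymal epithelium. Of 13 macrophage and leukocyte markers 12 were higher in FPKM in Ptbp1_cKO, with a sum of 61.2 FPKM in the control and 78.2 FPKM in Ptbp1_cKO, and C1qb and Fcer1g passed the q threshold. All 8 stromal markers were higher, with 186 and 235 FPKM, of which Dcn and Col1a1 passed. The 19 Sertoli cell markers summed to 1890 and 2188 FPKM, 16 were higher, and Clu passed. Clu alone was at 854 FPKM in the control and 1199 FPKM in Ptbp1_cKO, a gap wider than that of the sums, so the direction of the summed level rests on it. Round spermatid markers went the other way, with 10 of 11 lower and sums of 1922 and 1785 FPKM, and so did 9 of 11 spermatocyte markers, with 7190 and 6973 FPKM. Elongating spermatid markers did not, with 8 of 10 tested genes higher. Endothelial markers were higher in 8 of 8 tested genes, peritubular myoid markers in 5 of 6 and blood markers in 4 of 5. Markers of epididymal epithelium were low in sum, 2.59 FPKM in the control and 14.6 FPKM in Ptbp1_cKO, with 6 of 6 tested genes higher and with Lcn8 and Lcn10 listed at 0 in both. Of these, 4 passed: Crisp1 and Spink8, which also passed with the normal p, and Defb26 and Defb28, which are listed at 0 in the control and have no finite statistic. The Leydig cell list was split, with 5 of 10 markers higher and 5 lower in FPKM. Its Insl3 passed, higher in Ptbp1_cKO. In the spermatogonium list 8 of 10 markers were higher, and Kit and Uchl1, each higher in Ptbp1_cKO, passed.

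Promoter sequence was compared as a feature that the rule did not use. RefSeq windows from 250 bases before to 50 bases after a RefSeq start (GRCm38.p6) were at hand for 48 members. For each gene the start nearest the GENCODE gene start was taken, with no limit on the distance, and CG pairs were counted. The 3 windows below were chosen after their values were seen, to show the range of CG content, with each CG in capitals: Rab10 at chr12:3309920-3310219, Rab42 at chr4:132303307-132303606 and Rab17 at chr1:90967618-90967917, all on the minus strand.
Rab10: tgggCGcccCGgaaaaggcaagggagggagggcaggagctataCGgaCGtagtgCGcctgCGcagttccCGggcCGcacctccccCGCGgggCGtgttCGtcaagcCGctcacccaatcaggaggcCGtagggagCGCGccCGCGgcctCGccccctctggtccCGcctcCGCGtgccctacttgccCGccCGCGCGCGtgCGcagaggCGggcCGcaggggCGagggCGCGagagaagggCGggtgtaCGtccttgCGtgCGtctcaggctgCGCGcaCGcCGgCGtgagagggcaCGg
Rab42: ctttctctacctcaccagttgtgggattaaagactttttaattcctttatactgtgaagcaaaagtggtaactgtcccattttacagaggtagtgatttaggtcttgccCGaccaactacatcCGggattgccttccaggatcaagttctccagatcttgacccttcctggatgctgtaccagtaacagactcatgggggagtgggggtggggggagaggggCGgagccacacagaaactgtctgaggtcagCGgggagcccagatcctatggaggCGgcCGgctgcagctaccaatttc
Rab17: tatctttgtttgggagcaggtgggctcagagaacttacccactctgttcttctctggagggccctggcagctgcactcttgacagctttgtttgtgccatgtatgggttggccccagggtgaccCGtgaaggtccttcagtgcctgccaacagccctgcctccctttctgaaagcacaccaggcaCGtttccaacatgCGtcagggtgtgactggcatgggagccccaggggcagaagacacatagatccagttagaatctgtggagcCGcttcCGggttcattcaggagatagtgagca

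Rab10 had 43 CG pairs in its 300 bases and 17.5 FPKM in the control, and it lay at the upper end of the family. Rab42, with 6 CG pairs, was nonetheless measured at 11.5 FPKM in the control. Rab17, a RAB of polarised epithelia, had 5 CG pairs and only 0.0221 FPKM. Its window lies inside the GENCODE gene, which starts at 90969661 on the minus strand, so the count is not that of the GENCODE start. The 36 members of at least 1 FPKM had a median of 24.5 CG pairs (range 6 to 43), against 19.0 over all 11120 genes of that level, and 91.7% of them had at least 10, against 73.8%. The 12 members below 1 FPKM had a median of 10.5 CG pairs (range 5 to 38), against 4 over 9054 genes below 1 FPKM, and 66.7% had at least 10, against 25.7%. In both level classes, then, the family's median lay above that of all genes. A count of CG pairs says nothing of methylation or of factors bound there.

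The genes that load, switch and read RABs were counted together with RAB-like GTPases. They gave 1 call among 152 tested genes (0.658%, beside 1.16% of all tested genes). At unadjusted p under 0.05 stood 10 of them (6.58%), beside 8.98% of all tested genes. That call was Sytl5 (chromosome X, 9885622 to 9994543), a synaptotagmin-like effector of RAB27 proteins, which fell from 2.26 FPKM in the control to 1.35 FPKM in Ptbp1_cKO. Its log2 fold change was -0.75 with p = 0.000150 and a Cuffdiff q of 0.0202 in the authors' deposited table, and with the normal p the adjusted p was 1, so the call rests on the deposited p. Among the 58 tested effectors 23 were higher and 35 lower in FPKM, with a median difference in log2(FPKM + 1) of -0.0283. The RAB27 gene that Sytl5 would read, Rab27a, stood at 9.68 and 9.96 FPKM. Ocrl, an inositol phosphatase that binds several RABs, was the next effector by p, with 2.6 and 3.63 FPKM (log2 fold change 0.48, Cuffdiff q = 0.0726, the authors' deposited table), and did not pass.

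The other machinery lists had 0 genes at q under 0.05 by the deposited Cuffdiff test and 0 with the normal p. Where a list's count at unadjusted p under 0.05 is given below, the share of all tested genes was 8.98%. Of the 8 genes that prenylate and recycle RABs, 5 were higher and 3 lower in FPKM. The list of GTPase-activating proteins, a class that switches RABs off, took in Tbc1d genes by name, without a check of each on RABs. Of its 42 genes, 21 were higher and 21 lower, with 1 at unadjusted p under 0.05. This was Tbc1d4, a regulator of glucose transporter traffic, with 1.42 and 1.99 FPKM (log2 fold change 0.48, Cuffdiff q = 0.121, the authors' deposited table). Of the 36 tested exchange factors, which switch RABs on, 24 were higher and 12 lower, and 2 had unadjusted p under 0.05. Rin3, an exchange factor of RAB5 proteins, had the smallest p among them, with 1.95 and 2.49 FPKM (log2 fold change 0.35, Cuffdiff q = 0.335, the authors' deposited table). Of 8 RAB-like GTPases 7 were lower, with 1 at unadjusted p under 0.05, Rasef at 10.3 and 8.07 FPKM (log2 fold change -0.35, Cuffdiff q = 0.313, the authors' deposited table). The median differences in log2(FPKM + 1) were 0.0764 for prenylation and recycling, 0.0051 for GTPase-activating proteins, 0.0448 for exchange factors and -0.0655 for RAB-like GTPases, beside 0.0111 for the RAB genes themselves.

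**Figure D5:**
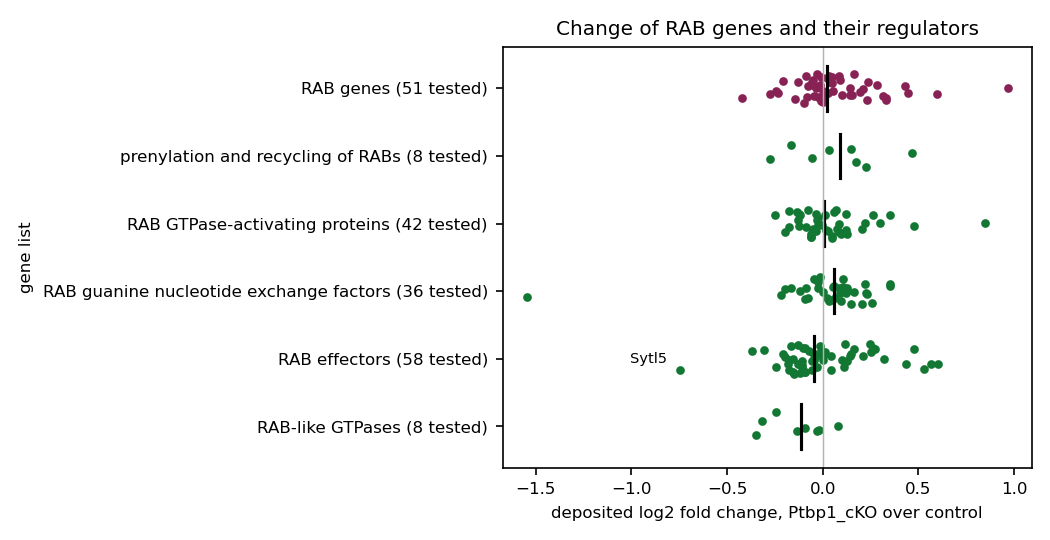
Deposited log2 fold change, Ptbp1_cKO over control (x axis), of each tested RAB gene and each tested gene of 5 lists (y axis). The lists hold RAB regulators, RAB effectors and RAB-like GTPases. Each point is 1 gene, and a black bar marks the median of each row. Most points lie within 0.5 of 0 on either side, and Sytl5, the gene at q under 0.05, lies at -0.75.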

How the data were processed

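RNA of whole testis was measured in 3 control and 3 Ptbp1_cKO libraries made with a stranded polyA kit, per the labels. Per the submitters' processing notes, bcl2fastq 2.20, Trimmomatic 0.38, STAR 2.6.1d, Cufflinks and Cuffdiff were used with build mm10. For Cufflinks and Cuffdiff the version, the normalization, the annotation release and the use of strand are each not given in the sources used here. Per the file headers, the authors deposited a Cuffdiff gene table with 1 FPKM per group, a log2 fold change, a test statistic (a score), a p-value and a q-value. Its q-values equal a Benjamini-Hochberg adjustment of the deposited p-values over the 22048 tested genes, and its log2 fold changes equal the log2 ratio of the FPKM values. No gene test was fitted anew: calls are the authors' at q under 0.05.

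From these values were computed counts, sums and medians (pseudocount 1, genes of at least 0.1 FPKM in a group), and a 2-sided normal p from the statistic, with 28 tested genes that have no finite statistic left out of it. Of the computing steps, the normal p with its adjustment and the estimate of fragments per library were tested on simulated data. GENCODE M21 matched 98.6% of the gene identifiers and all 59 members, and gave positions, overlaps and coding sequences; copies were sought with BLAST 2.17.0 (at least 95% identity over 80% of the coding sequence). Promoters came from RefSeq GRCm38.p6. Scripts ran in Python 3.11.15 with pandas 2.3.3 and scipy 1.17.1. Fragments per library were estimated from FPKM steps, to within 1 percent of a step for all low values used, and cover counting only.

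Named are members with unadjusted p under 0.05, the 12 most abundant, the 5 largest rises and 5 largest falls in fold change at 1 FPKM or more, those on chromosome X, and paralogues. From each machinery list came its genes under q 0.05 or else the one with the smallest p. Of these, 1 gene is not reported here. Further members were picked for mention with their values in view. The members, role groups and lists were chosen with earlier results of these data known.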

Additional observations from a re-analysis of the deposited data

How the results depend on the processing

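Across 3 alternatives (the normal p, q under 0.1, and adjustment over genes of at least 1 FPKM) the count of RAB members past the threshold was 0, as in the main result. The tested members among the 12 most abundant, the 5 largest rises and falls, those with unadjusted p under 0.05 and those on chromosome X were short of the threshold with the normal p too. Their fold changes kept their sign after centring on all genes and on the log2(FPKM + 1) scale, where no test was run. The other tested members were also short of the threshold with the normal p, and their fold changes kept their sign on both scales. The median difference of the members, 0.0111, was 0.0175 with a pseudocount of 0.1 and 0.0037 over members of at least 1 FPKM; the cause was not tested. The ratio of summed FPKM, 0.980, was 0.989 without Rab8a, which leaves out the most abundant gene. RAB effectors past the threshold numbered 1 in the main result, 0 with the normal p and 2 with q under 0.1.

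No paired analysis was possible because the deposited table holds 1 value per group and none per library. For the same reason leaving out each replicate could not be run, and no spread between libraries, batch or library that stands apart can be seen here. The 8 untested members rest on about 2 to 81 fragments per group.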
